A study of Rattus norvegicus with 10 samples.

Results

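The variable domain of a rat antibody heavy chain is assembled in each B cell from an IGHV, an IGHD and an IGHJ gene. The IGHV gene encodes the framework and the complementarity-determining regions (CDR) 1 and 2, and the junction of the 3 genes forms CDR3, the most variable loop of the antigen-binding site. The IGHV2 subgroup is a large group of closely related heavy chain genes of the rat, and its members carry a short CDR2. After contact with antigen a B cell divides and its variable domain acquires point mutations, so that many related sequences can descend from 1 cell.

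The data were immunoglobulin heavy chain repertoires of 10 outbred Wistar rats, littermates, from which whole spleen cells were taken. In the DNP group 5 animals received keyhole limpet hemocyanin modified with dinitrophenyl, and in the HuD group 5 animals received recombinant human HuD, a neuronal RNA-binding protein that is a target of autoantibodies in patients with certain tumors. All 10 animals were immunized once with antigen in Freund's complete adjuvant and boosted 3 times in incomplete adjuvant, and no animal without antigen was analysed here. Each animal gave 1 library, and p-values over animals therefore measure the spread between animals with 1 library each. Only heavy chain transcripts were amplified, so markers of the cell types of the spleen could not be checked, and fewer B cells that use a gene and less RNA per B cell cannot be told apart.

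The genes described here are all IGHV2 genes except IGHV2-8, IGHV2-63, IGHV2-45, IGHV2-17, IGHV2-52 and IGHV2S75, which are called the other 6 IGHV2 genes below. Members were found as productive reads whose first-named IGHV gene was one of the remaining IGHV2 genes, a read being a collapsed sequence. This gave 41 genes of 141 IGHV genes in all and 205403 of 1615896 productive reads, or 12.7%. Productive reads per animal ranged from 60647 to 259834. Of the 41 genes, 29 had at least 100 reads over the 10 animals and 26 were found in all 10 animals. The other 12 genes had between 1 and 37 reads each and 128 reads together. The other 6 IGHV2 genes held 1.24% of the productive reads. Chromosome positions of the genes were not used here.

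The sequences of CDR1 and CDR2 show what these genes have in common and how they differ. The commonest amino acid sequence of both regions in the productive reads is given for the 8 genes with the highest mean share and for IGHV2S30, the genes that the results below turn on.
IGHV2-1 CDR1: GFSLTSNS
IGHV2-1 CDR2: IWGDGST
IGHV2-13 CDR1: GFSLSNYG
IGHV2-13 CDR2: IWGNGNT
IGHV2S12 CDR1: GFSLTSYG
IGHV2S12 CDR2: ISSGGST
IGHV2-6 CDR1: GFSLTSYT
IGHV2-6 CDR2: ISSGGST
IGHV2-43 CDR1: GFSLTSYH
IGHV2-43 CDR2: IWTGGST
IGHV2-47 CDR1: GLSLTSNS
IGHV2-47 CDR2: IWSNGGT
IGHV2-32 CDR1: GFSLTSYH
IGHV2-32 CDR2: MWSDGDT
IGHV2-15 CDR1: GFSLTSYG
IGHV2-15 CDR2: IWSGGST
IGHV2S30 CDR1: GFSLMDYS
IGHV2S30 CDR2: MKYDGDT

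The commonest CDR1 started with GFSL in 27 of the 29 genes with at least 100 reads, and the exceptions were IGHV2-47 and IGHV2-61. It was GFSLTSYG in 7 genes and GFSLTSYH in 5 genes. Over all member reads, 99.6% had a CDR1 of 8 residues and 99.7% a CDR2 of 7 residues. The other 6 IGHV2 genes had the short CDR2 in 99.7% of their reads, and IGHV genes of other subgroups in 13.0%. The commonest CDR1 held 55.9% of the reads of IGHV2-47 but 18.5% of those of IGHV2S12, where GFSLTSNG held 18.2%. The reads of IGHV2S30 were also split between forms. Its CDR2 was MKYDGDT in 28.89% and MRYDGDT in 28.83%, and its CDR1 was GFSLMDYS in 27.0% and GFSLTGNN in 22.2%.

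The residues just before CDR3 divided the genes. Framework 3 ended in phenylalanine and cysteine (FC) in 51.9% of the member reads and in tyrosine and cysteine (YC) in 44.5%. In the other 6 IGHV2 genes FC made up 8.30% of the reads, and in other subgroups 2.93%. Of the 29 genes, 12 had FC in over 70% of their reads, between 70.2% in IGHV2-70 and 97.9% in IGHV2S61, and 15 had it in under 20%. The remaining genes were IGHV2-13 with 36.4% and IGHV2S54 with 29.7%. Among the abundant genes, IGHV2-1, IGHV2S12, IGHV2-6, IGHV2-47 and IGHV2-15 were of the FC kind, and IGHV2-43, IGHV2-32, IGHV2-41 and IGHV2-30 were not.

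How far a read can be tied to 1 gene differed between members. Over all members 17.7% of the reads carried more than 1 IGHV gene name, and such a read was counted under its first name. IGHV2S12 stood highest among the abundant genes, with 69.9% of its reads, nearly all of which also named IGHV2S8 (14241 of 14245 reads). In IGHV2-15 the share was 61.7%, mostly together with IGHV2-16 (6359 reads). It was 24.7% in IGHV2-6 and 20.3% in IGHV2-13, but 0.352% in IGHV2-47. The values of IGHV2S12, IGHV2S8, IGHV2-15 and IGHV2-16 are therefore uncertain between near-identical genes.

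The annotation gives each germline gene a status, functional, open reading frame or pseudogene. Of the member reads 84.4% named one of 28 functional genes and 7.02% one of 7 open reading frames. The remaining 17606 reads, or 8.57%, named one of 6 pseudogenes although the reads themselves were called productive. Most of them came from IGHV2-43 with 15885 reads, and 92.7% of all its reads, productive or not, were productive. This share was 92.4% in IGHV2-41, listed as an open reading frame, and 90.9% over the members together with 6 further IGHV2 genes that had no productive read. For this whole set it ranged from 83.6% to 92.5% between animals. In HuD1 it was low for several genes, at 59.3% in IGHV2-30 (1255 reads), 41.8% in IGHV2-4 (91 reads) and 22.5% in IGHV2S54 (40 reads). The lowest value among the 29 genes, with at least 20 reads of the gene in the animal, was 19.2% for IGHV2S63 in DNP1.

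The 41 genes together held 10.3%, 9.05%, 7.69%, 12.1% and 8.14% of the productive reads of animals DNP1 to DNP5. In animals HuD1 to HuD5 they held 9.15%, 14.9%, 8.23%, 12.6% and 24.9%. The ranges overlapped, and HuD5 was the highest animal. The mean was 9.45% ± 1.77 (SD, n = 5) in DNP and 13.9% ± 6.68 (SD, n = 5) in HuD, a difference of 4.5 percentage points that was 1.77 points without HuD5. As a share of clones, a clone being an IGHV gene with a CDR3 amino acid sequence, the members held 13.1% ± 1.92 (SD, n = 5) in DNP and 14.7% ± 4.48 (SD, n = 5) in HuD. No test was made on a sum over chosen genes.

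**Figure D1:**
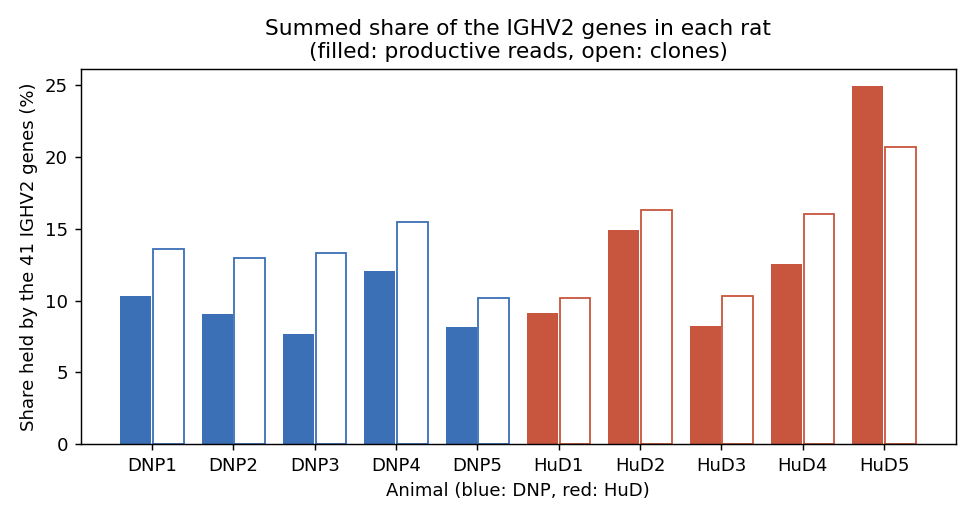
Share of the 41 IGHV2 genes in each of the 10 rats, in percent of productive reads (filled bars) and of clones (open bars). HuD5 reaches 24.9% of the reads and 20.7% of the clones, and the other animals lie between 7.69% and 14.9% of the reads.

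The mean of the copy number deposited with each read was lower for the members than for all other genes in each of the 10 animals. It ranged from 1.05 to 1.40 copies for members and from 1.42 to 2.07 copies for the others, which makes the members' share of copies smaller, between 4.87% and 22.5%.

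IGHV2-1 had the highest mean share, 1.31% of the productive reads. Its share was 1.48%, 1.10%, 0.458%, 0.685% and 0.519% in DNP1 to DNP5 and 1.03%, 1.23%, 0.255%, 1.93% and 4.43% in HuD1 to HuD5. The lowest and the highest animal were both HuD animals, so the groups overlapped widely. IGHV2S12 was at 1.19%, 0.725%, 0.416%, 2.57% and 1.55% in the DNP animals and at 0.519%, 1.24%, 0.691%, 1.38% and 1.05% in the HuD animals. Its share was highest in DNP4, and no animal lay below 0.416%.

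IGHV2-6 was the gene with the largest share in 1 DNP animal. In DNP1 to DNP5 it was 0.986%, 0.267%, 4.70%, 1.53% and 0.487%. In HuD1 to HuD5 it was 0.0531%, 0.715%, 0.971%, 0.421% and 0.581%. DNP3 had the fewest productive reads of all libraries, and 83.5% of its IGHV2-6 reads belonged to 1 family of related CDR3s, described below. IGHV2-32 was at 1.21%, 0.704%, 0.318%, 0.517% and 1.19% in DNP and at 0.524%, 1.03%, 0.538%, 0.529% and 0.917% in HuD, so that all HuD animals lay within the DNP range. IGHV2-15 was at 1.67%, 0.504%, 0.265%, 0.838% and 0.290% in DNP and at 0.612%, 0.522%, 0.278%, 1.18% and 0.911% in HuD, again within the DNP range.

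IGHV2-47 was higher in every HuD animal than in any DNP animal. Its share was 0.339%, 0.392%, 0.277%, 0.418% and 0.283% in DNP1 to DNP5, and 0.923%, 2.21%, 1.02%, 0.450% and 1.22% in HuD1 to HuD5. The nearest animals were DNP4 and HuD4. The mean was 0.342% ± 0.0633 (SD, n = 5) in DNP and 1.16% ± 0.650 (SD, n = 5) in HuD, a log2 difference of 1.49 with a standard error of 0.54. By edgeR's quasi-likelihood test with Benjamini-Hochberg adjustment over all genes this did not pass (adjusted p = 0.192). With DESeq2 it passed (adjusted p = 0.0159), and with limma it did not (adjusted p = 0.0677). In edgeR without DNP2 it did not pass either (adjusted p = 0.0713).

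IGHV2-43, the gene listed as a pseudogene, had shares of 0.0832%, 1.14%, 0.0923%, 0.369% and 0.0938% in the DNP animals 1 to 5. Its shares in the HuD animals were 2.22%, 1.41%, 1.06%, 1.92% and 0.626%. DNP2 lay within the HuD range and the other 4 DNP animals below it. In HuD1 1 clone made up 67.0% of the reads of the gene, and the log2 difference of 1.60 did not pass (edgeR, adjusted p = 0.271).

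The abundance of 4 genes separated DNP2 from the other DNP animals. IGHV2-13, the gene with the second highest mean share, had 27, 565, 5, 89 and 2 reads in DNP1 to DNP5 and 455, 1587, 1274, 1525 and 17966 reads in HuD1 to HuD5. As a share this was at most 0.0343% in DNP1, DNP3, DNP4 and DNP5, 0.456% in DNP2, and between 0.291% and 8.66% in HuD. For the share of HuD5 the 95% Wilson interval was 8.54% to 8.78%. This and all other intervals and limits cover counting error only.

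IGHV2S63 had 5, 1224, 2, 13 and 1 reads in DNP1 to DNP5 and between 418 and 2121 reads in the HuD animals. IGHV2S61 had 1, 173, 0, 2 and 1 reads in the DNP animals and between 177 and 3614 reads in HuD. The count of 0 in DNP3, of 60647 reads, allows a share of up to 0.00495%. IGHV2S30 had 5, 161, 3, 42 and 17 reads in DNP and 273, 664, 309, 870 and 584 reads in HuD. Again DNP2 was the only DNP animal with over 100 reads of these genes. In shares of productive reads DNP2 lay within the range of the HuD animals for IGHV2-13 and IGHV2S61, above it for IGHV2S63 and below it for IGHV2S30, with 0.130% against at least 0.175%.

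The few reads in DNP1, DNP3, DNP4 and DNP5 were mostly of CDR3s that had more reads under another gene. For each CDR3 the gene with the most reads in the animal was taken as its leading gene. These genes and animals were picked for their few reads, and a gene with few reads is less likely to lead a CDR3. The contrast with the other 6 animals is therefore partly set by that choice, and the origin of these reads was not tested. Of the 123 IGHV2-13 reads in these 4 animals 91.1% belonged to a CDR3 led by another gene, against 34.5% in the other 6 animals. The values were 95.2% of 21 reads and 34.7% for IGHV2S63, and 73.1% of 67 reads and 32.3% for IGHV2S30. For IGHV2S61 it was 50.0% of only 4 reads and 6.16%. Of the IGHV2-13 reads in these 4 animals 49.6% also named several genes, against 20.2% in the other 6.

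**Figure D2:**
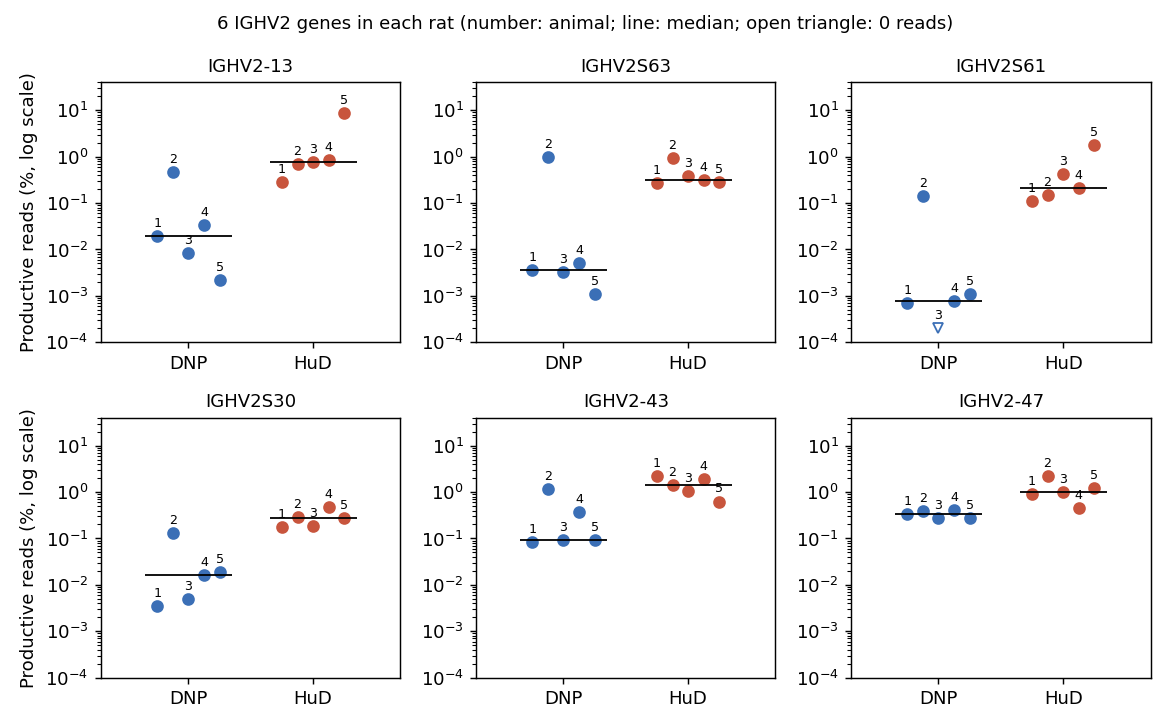
Share of productive reads, in percent on a log scale, of 6 IGHV2 genes in each rat, with the animal number beside each point, a line at the group's median and an open triangle for 0 reads. For IGHV2-13, IGHV2S63, IGHV2S61 and IGHV2S30, DNP2 lies apart from the other 4 DNP animals, and for IGHV2S30 and IGHV2-47 the groups do not overlap.

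By edgeR none of the 29 member genes with at least 100 reads passed an adjusted p of 0.05, while 2 of all 81 genes tested did (2.47%). At an unadjusted p under 0.05 in edgeR there were 5 of the 29 member genes, and 19 of all 81 genes. Of these 5 members, 4 were higher in HuD (IGHV2-13, IGHV2-47, IGHV2S30 and IGHV2-61) and IGHV2S18 was lower, all with an adjusted p of 0.192. DESeq2 called 4 members, IGHV2-13, IGHV2-47, IGHV2S30 and IGHV2S61, and limma on log2(RPM + 10) called 5, IGHV2-13, IGHV2-43, IGHV2S30, IGHV2S61 and IGHV2S63, all of them higher in HuD. Over all 81 genes DESeq2 called 14 and limma 16. Without DNP2, edgeR called 8 members, of which IGHV2-13, IGHV2-43, IGHV2S30, IGHV2S54, IGHV2S61 and IGHV2S63 were higher in HuD and IGHV2-6 and IGHV2S18 lower, among 30 calls over all 81 genes. Leaving out any other animal gave 0 members.

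The median log2 difference, HuD over DNP, was 0.55 over the 29 members and 0.13 over all 81 genes, and 17 of the members were above 0. The median of all genes was 0.28 with relative log expression factors and 0.47 with no composition factor, and that of the members was 0.71 and 0.62. The shares of the groups did not overlap for 2 of the 29 members, IGHV2-47 and IGHV2S30, and for 5 of all 81 genes (6.17%). Of the other 6 IGHV2 genes none passed edgeR's test, and their log2 differences ran from −3.72 to 3.14, with 3 of them negative. IGHV2S63 and IGHV2S61 were singled out above after their values were seen.

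**Figure D3:**
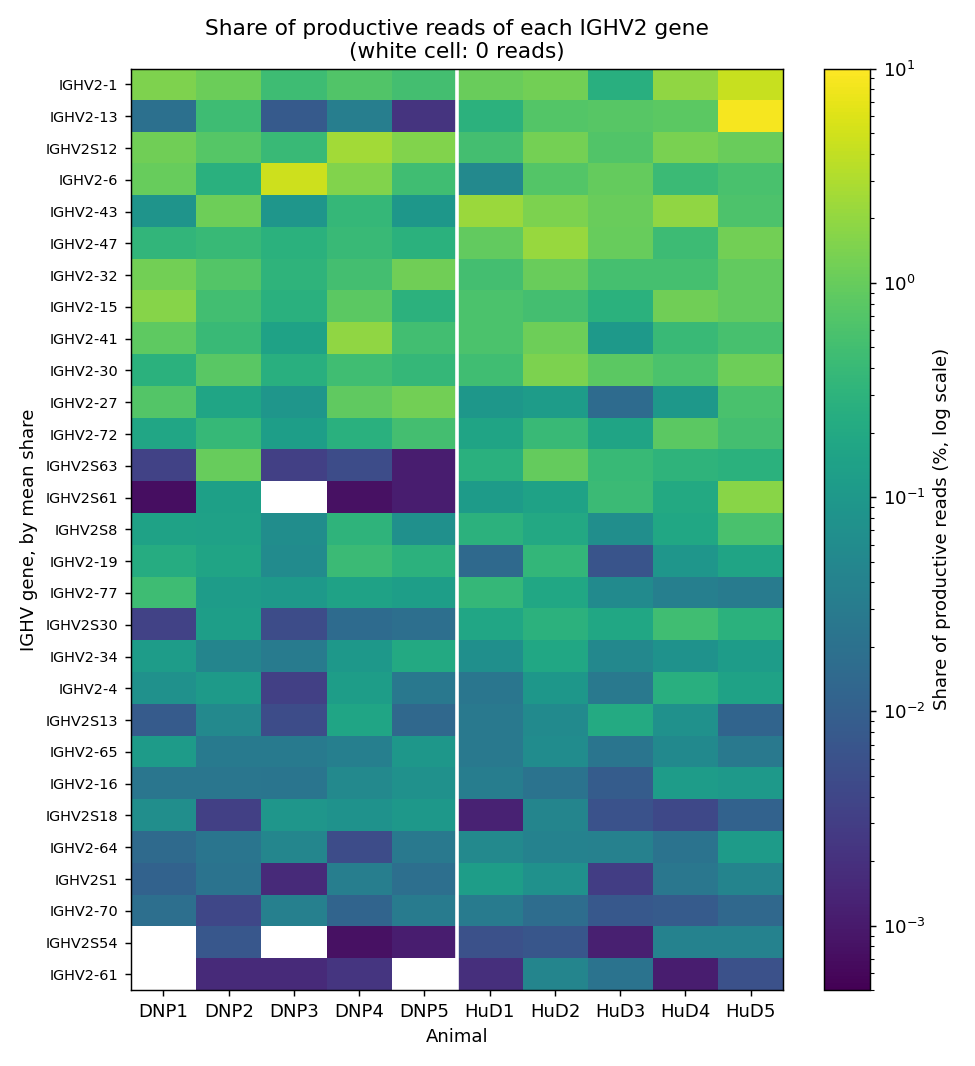
Share of productive reads of the 29 IGHV2 genes with at least 100 reads in each rat, in percent on a log color scale, with white for 0 reads and a white line between the groups. IGHV2-13, IGHV2S63, IGHV2S61 and IGHV2S30 are darker (lower) in DNP1, DNP3, DNP4 and DNP5 than in the other 6 animals.

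The remaining genes with at least 100 reads had mean shares from 0.663% in IGHV2-41 down to 0.00813% in IGHV2-61. IGHV2-41 was highest in DNP4 with 1.92%, and IGHV2-27 in DNP5 with 1.23%. IGHV2-27 was at 0.694%, 0.169%, 0.0923%, 0.881% and 1.23% in DNP and at 0.0928%, 0.119%, 0.0161%, 0.0972% and 0.587% in HuD. IGHV2S18 was at least 0.0660% in the DNP animals other than DNP2, which had 0.00323%, and at most 0.0445% in HuD. Some genes rested on few animals: HuD5 held 76.5% of all IGHV2-13 reads and 66.8% of all IGHV2S61 reads, and HuD2 held 61.6% of the 164 reads of IGHV2-61.

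The members formed between 1282 clones in DNP3 and 11063 clones in HuD2, and 68.1% to 76.4% of the clones had 1 read. For the abundant genes the clone with the most reads is given by its CDR3, since some of these clones were large parts of the shares above. The most read clones of IGHV2S12 and IGHV2-15 are left out because their CDR3s have more than 14 residues.
IGHV2-1 in HuD5: TSPFRWFAY
IGHV2-13 in HuD5: ARGDYSSPRGGY
IGHV2-6 in HuD3: ARGWERFAY
IGHV2-43 in HuD1: ARDAGILRY
IGHV2-47 in HuD5: ARASFDY
IGHV2-32 in DNP1: ARGIPDFDY

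ARDAGILRY under IGHV2-43 had 2326 reads in HuD1, or 1.49% of all its productive reads and 16.3% of its member reads. ARGDYSSPRGGY under IGHV2-13 had 1527 reads in HuD5, and TSPFRWFAY under IGHV2-1 had 751 reads there. ARGWERFAY made up 53.8% of the IGHV2-6 reads of HuD3 with 879 reads. ARGIPDFDY with 480 reads was 28.6% of the IGHV2-32 reads of DNP1. None of these 5 CDR3s had a read in another animal, under any gene. The largest IGHV2-47 clone was smaller, with 244 reads and 9.66% of the IGHV2-47 reads of HuD5, and its short CDR3 ARASFDY had 93 further IGHV2-47 reads in other animals.

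Much of what was counted under 1 gene shared its CDR3 with other IGHV2 genes of the same animal. Of the member reads 31.5% had a CDR3 with more reads under another gene, 30.7% under another IGHV2 gene and 0.773% under a gene of another subgroup. The share was lowest in DNP3 with 8.15% and highest in HuD2 with 38.1%. For IGHV genes of other subgroups it was 30.1%. It was lowest in IGHV2S61 with 6.19%, 24.3% in IGHV2-43 and 39.7% in IGHV2-15, and highest in IGHV2-4 with 84.1%. A CDR3 was found under at most 25 member genes in 1 animal. The cause of this sharing was not tested.

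The clones of HuD5 show this pattern. TRTYGGYTSHWFAY, chosen after its values were seen, had 2472 reads in HuD5 under 34 genes, 58.1% of them under IGHV2-13, 24.4% under IGHV2-1 and 7.56% under IGHV2-15. TSPFRWFAY had 55.0% of 1365 reads under IGHV2-1 and 16.6% under IGHV2-13. In HuD1, by contrast, 93.8% of the 2480 reads of ARDAGILRY were under IGHV2-43, and the next gene, IGHV2S63, had 24 reads.

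Related CDR3s were joined into families within an animal when they had the same IGHV gene, IGHJ gene and length and were linked by 1 substitution. The largest family held 51.1% of all member reads in DNP3, 16.6% in HuD1, 12.0% in HuD5 and between 2.25% and 6.52% in the other 7 animals. In DNP3 it was an IGHV2-6 family with IGHJ2 and a CDR3 of 17 residues, with 2382 reads of 268 different CDR3s. Without it the share of the members in DNP3 would be 3.91%. In HuD1 the family was that of ARDAGILRY, in which 2326 of 2368 reads had the same CDR3. In HuD5 3 IGHV2-13 families, led by ARADIAAISTDGI, TRTYGGYTSHWFAY and ARGDYSSPRGGY, together made up 65.1% of the IGHV2-13 reads. The first of these had 6177 reads of 182 different CDR3s, of which the leading one had 980 reads. The families thus differed in form, with many related CDR3s in DNP3 and HuD5 and almost 1 CDR3 alone in HuD1. IGHV2-1 carried a family of TRTYGGYTSHWFAY in HuD5 too, with 3869 reads.

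**Figure D4:**
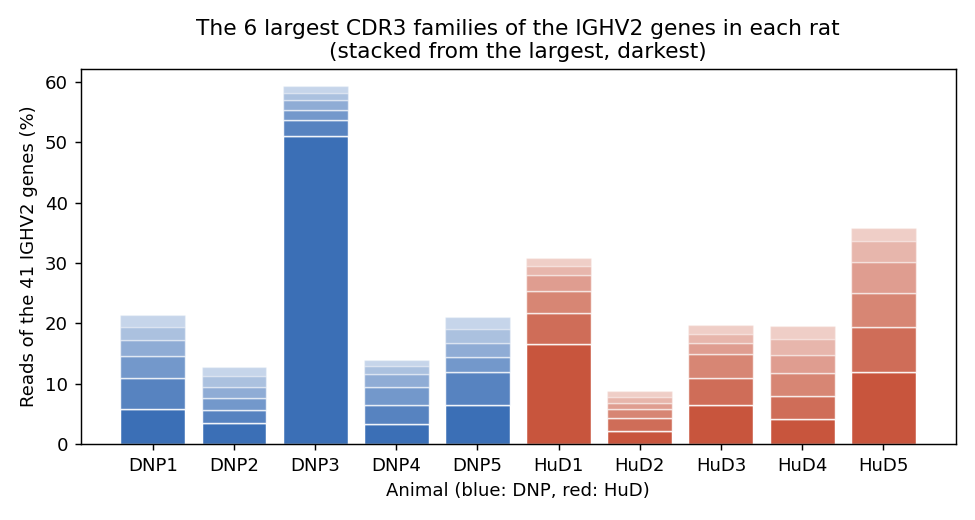
The 6 largest CDR3 families of the IGHV2 genes in each rat as stacked bars, in percent of the reads of the 41 genes, with the largest and darkest at the bottom. The largest family reaches 51.1% in DNP3, 16.6% in HuD1 and 12.0% in HuD5.

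The mean CDR3 length of member clones was 12.0 residues over the 10 animals, from 11.3 in DNP1 to 13.4 in DNP3, where 20.9% of the clones belonged to the large family. All other IGHV genes had 12.1 residues, and the difference of −0.09 residues ± 0.57 (SD, n = 10) did not pass (exact sign-flip permutation test, two-sided, adjusted p = 0.723 over 13 comparisons). Without DNP3 it was −0.25 residues (exact permutation, adjusted p = 0.0508). Against the other 6 IGHV2 genes the difference was −0.20 residues ± 0.39 (SD, n = 10), shorter in 8 of 10 animals, and did not pass either (exact sign-flip permutation, adjusted p = 0.229). Counted once per family, an alternative chosen after seeing the data, it was −0.30 residues and passed (adjusted p = 0.0254). Among the 29 genes the mean length ran from 10.7 residues in IGHV2-77 to 12.5 in IGHV2-72. The most read clone of IGHV2-77, named after its values were seen, was AELTSDF in HuD1, with 393 reads and 7 residues, or 68.7% of the IGHV2-77 reads of that animal.

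IGHJ2 was the most frequent J gene of the member clones in all 10 animals, between 45.3% in DNP4 and 66.9% in DNP3, with a mean of 56.2%. IGHJ3 followed with 18.5%, IGHJ4 with 16.8% and IGHJ1 with 8.54%. IGHJ3 was less frequent than in all other IGHV genes in 9 of 10 animals, with a difference of −4.74 percentage points ± 4.26 (SD, n = 10), which did not pass (exact sign-flip permutation, adjusted p = 0.0508). IGHJ4 was less frequent than in the other 6 IGHV2 genes in 9 of 10 animals, with a difference of −4.20 points ± 4.51 (SD, n = 10) and the same adjusted p in the exact sign-flip permutation test. IGHJ2 was 4.65 points ± 5.86 (SD, n = 10) above all other IGHV genes (exact permutation, adjusted p = 0.107). Both differences at 0.0508 passed when clones were split by IGHJ gene, with adjusted p = 0.0381 for IGHJ3 and 0.0254 for IGHJ4. The IGHJ4 difference was smaller, and did not pass, with at least 2 reads per clone (−2.29 points, adjusted p = 0.638) and with families counted once (−1.54 points, adjusted p = 0.121).

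**Figure D5:**
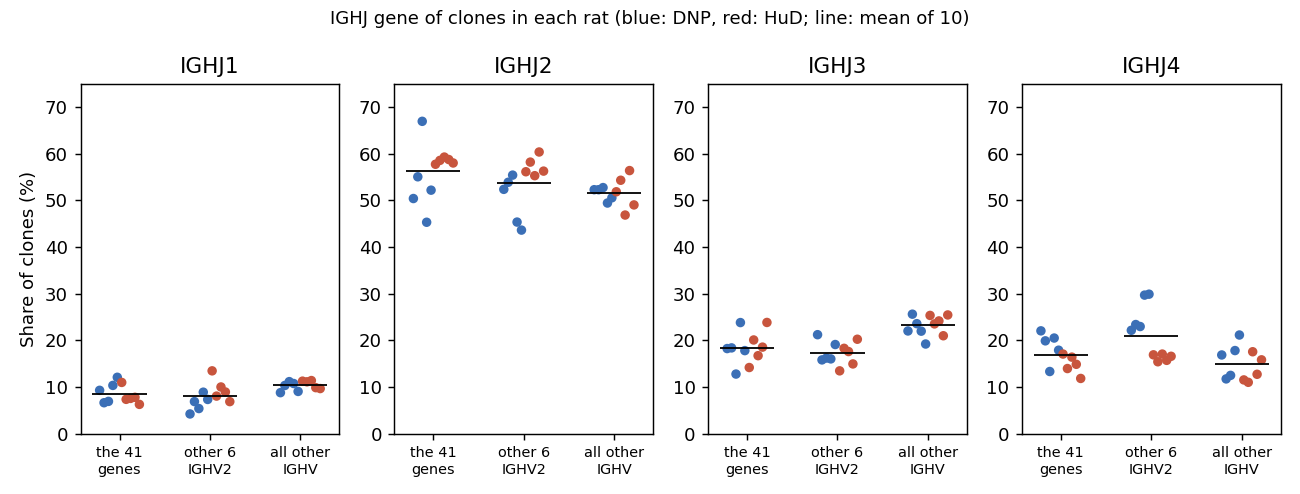
Share of clones with each IGHJ gene in each rat, in percent, for the 41 genes, the other 6 IGHV2 genes and all other IGHV genes, blue for DNP and red for HuD, with a line at the mean of the 10 animals. The mean of IGHJ3 is 18.5% in the 41 genes and 23.2% in all other IGHV genes.

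The IGHJ2 share of clones ran from 49.1% in IGHV2-41 to 71.0% in IGHV2S54 over the 29 genes, and was 66.1% in IGHV2S61. IGHJ4 was 21.7% in IGHV2-41 and 10.9% in IGHV2S61. IGHJ3 was 25.1% in IGHV2S8 and 14.2% in IGHV2-30. By reads, which weight the expanded clones, IGHJ2 reached 86.4% in IGHV2S61 and IGHJ3 reached 40.3% in IGHV2-1.

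The share of clones with 1 read was 71.6% ± 2.67 (SD, n = 10), and 72.2% in all other IGHV genes, higher in 5 animals and lower in 5 (exact sign-flip permutation, adjusted p = 0.297). The mean net charge of CDR3, lysines and arginines minus aspartates and glutamates, was −0.36 in the members and −0.23 in all other genes, lower in 8 of 10 animals (exact sign-flip permutation, adjusted p = 0.107). The lowest animal was DNP3 with −0.996, and without it the difference fell in size from −0.13 to −0.0542.

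Between the antigens, none of the 7 measures of member clones passed (exact permutation test over all sets of 5 animals, two-sided, smallest possible p = 0.00794). IGHJ4 was 18.7% ± 3.37 (SD, n = 5) in DNP and 14.8% ± 2.07 (SD, n = 5) in HuD (exact permutation, p = 0.0714, adjusted p = 0.5). IGHJ2 was 54.0% ± 8.06 (SD, n = 5) in DNP and 58.5% ± 0.610 (SD, n = 5) in HuD, where all 5 animals lay between 57.7% and 59.3% (adjusted p = 0.825, exact permutation). Without DNP3, the animal with the large IGHJ2 family, both differences passed, with 7.73 points for IGHJ2 and −5.25 points for IGHJ4 (exact permutation, adjusted p = 0.0278 for both). Under the other 15 settings, among them families counted once, neither passed. With families counted once DNP3 was still the highest DNP animal for IGHJ2, at 59.0%, and the other DNP animals lay between 47.5% and 54.6%. CDR3 length differed by −0.16 residues (adjusted p = 0.825, exact permutation).

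Of 56119 member clones 55581 were found in 1 animal and 538 in several, or 0.959%. None was in more than 5 animals. Shared clones had a mean CDR3 length of 8.84 residues, against 12.1 for the clones of 1 animal, and 399 of the 538 had 1 read in at least 1 of their animals. They divided into 184 found in both groups, 146 in DNP animals only and 208 in HuD animals only. The clones found in the most animals are shown by the naming rule, 5 from the clones in 5 animals and 5 of the 7 clones in 4 animals, ties being broken by reads.
IGHV2-6 in 5 animals: ARWGDY
IGHV2-6 in 5 animals: ARSGRD
IGHV2-1 in 5 animals: TRWDY
IGHV2-6 in 5 animals: ARWDY
IGHV2-43 in 5 animals: ARDGSFDY
IGHV2-47 in 4 animals: ARGSAFFDY
IGHV2S12 in 4 animals: ARWGDY
IGHV2-15 in 4 animals: ARWDY
IGHV2-43 in 4 animals: VRDGSFDY
IGHV2-30 in 4 animals: ARGNYGGYDY

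Under IGHV2-6, ARWGDY had 15 reads in DNP1, 3 in DNP4, 141 in DNP5, 3 in HuD4 and 63 in HuD5. ARSGRD had 145 reads in HuD2 and 25 in HuD4 and at most 4 in DNP1, DNP4 and DNP5. ARGSAFFDY under IGHV2-47 had 145 reads in HuD1, 18 in DNP2, 15 in HuD5 and 4 in HuD2. ARGNYGGYDY under IGHV2-30 was the only clone of the 10 found in animals of 1 antigen, with 3, 16, 59 and 86 reads in DNP2 to DNP5 and none in DNP1 or in HuD. Under any gene this CDR3 was found in the same number of animals, 4. All 10 clones used IGHJ2 in over 96% of their reads.

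Clone overlap between 2 animals was measured as the number of common clones divided by the geometric mean of their clone numbers. It was 0.441% on average for the 20 pairs of the same antigen and 0.198% for the 25 pairs of different antigens, a difference of 0.243 percentage points (exact permutation test over all splits into 5 and 5 animals, one-sided, p = 0.0238, smallest possible p = 0.00794). DNP pairs had 0.525% and HuD pairs 0.358%. DNP2 went the other way, with 0.0407% to 0.371% to the other DNP animals and 0.155% to 0.610% to the HuD animals, and without it the difference was 0.364 points (exact permutation, p = 0.00794). Leaving out the animal that goes the other way raises the difference in any case, so this value adds nothing to the test over all animals. The highest pair was DNP3 and DNP4 with 1.51% and 53 common clones, and the difference was 0.142 points without DNP4 and 0.171 without DNP3 (exact permutation, p = 0.0397 for both). Without the 4 genes that had few reads in 4 DNP animals, a setting chosen after seeing the data, the difference was 0.242 points (exact permutation, p = 0.0238).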

How the data were processed

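Heavy chain variable domains were sequenced from the spleen cells of 10 rats, 1 library per animal, multiplexed in 1 MiSeq run. Read pairs were merged by the authors with PEAR, collapsed by molecular tag with MIGEC (a minimum UMI count of 1, with a section of CDR3 as part of the tag) and annotated with High-VQuest. For tool versions and the germline set, the sources used here give nothing. The copy number deposited beside each sequence, made by the authors, was taken as given and used only as an alternative. A collapsed sequence counted as 1 read. Gene names, amino acids, germline status and the productive call were used as deposited.

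Usage was tested with edgeR 4.0.16 (R 4.3.3, quasi-likelihood, TMM, standard errors as the log2 difference divided by the root of F) on read counts of 81 genes, those reaching 100 reads in all, and p-values were adjusted over these genes (Benjamini-Hochberg) with a threshold of 0.05. DESeq2 1.42.0 and limma 3.58.1 were alternatives, as were other scalings, filters, units (clones, copies), reads naming 1 gene, a replicate block and leaving out each animal. Other tests were exact permutations over animals (Python 3.11.15, scipy 1.17.1), adjusted over 13 comparisons within animals and over 7 between antigens. The scripts were checked on simulated data. Animals were grouped by the sample labels.

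The named genes are the 8 with the highest mean share, any member past the edgeR threshold and any whose groups do not overlap. The named CDR3s are the most read of these 8 genes and the 10 clones in most animals, below 15 residues. The members and lists were chosen with earlier results of these data known. Libraries of 60647 to 259834 productive reads limit the precision of shares of rare genes.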

Additional observations from a re-analysis of the deposited data

Results flagged for a closer look

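Of 40 groups of 5 animals looked at, 11 held an animal far from the other 4. The rule flags about 1 in 20 groups by chance only for independent values of normal spread. Shares that span orders of magnitude are not such values, and some flags below rest on the same reads. The number of flags therefore cannot be compared with that rate. In the DNP group DNP2 stood above the others for IGHV2-13 (0.456%, next 0.0343%), IGHV2-43 (1.14%, next 0.369%), IGHV2S30 (0.130%, next 0.0185%), IGHV2S63 (0.989%, next 0.00500%) and IGHV2S61 (0.1397%, next 0.00109%). DNP3 stood apart for the share of IGHV2-6 (4.70%, next 1.53%), the largest CDR3 family (51.1% of the member reads, next 6.52%) and the net charge of CDR3 (−0.996, next −0.361). In the HuD group HuD5 stood above the others for IGHV2-13 (8.66%, next 0.828%) and IGHV2S61 (1.74%, next 0.430%), and HuD2 for IGHV2S63 (0.944%, next 0.390%).

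Together with 6 IGHV2 genes that had no productive read and so are not among the 41, the member genes had 20553 reads not called productive, which enter the productive shares but no other comparison. Among them 554 of 561 IGHV2-26 reads were not productive, 435 of all IGHV2-26 reads being in HuD1. IGHV2S64 had 586 such reads of 587. IGHV2-66, one of the 6 genes with no productive read, had 115. All 3 numbers are above the 3 reads that a count of 0 allows.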

How the results depend on the processing

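The clone overlap was the exact test that passed, and it passed under every alternative run, with differences of 0.142 to 0.364 points when 1 animal was left out. The number of member genes called by edgeR stayed at 0 with other scalings, filters and units. It was 4 with DESeq2, 5 with limma and 3 with a replicate block, and 0 to 8 when 1 animal was left out, 8 being without DNP2. Over all 81 genes the calls were 14 with DESeq2, 16 with limma, 13 with the block and 30 without DNP2. Same-numbered animals deviated from their group means with correlations of −0.144 to 0.289 over 81 genes. The labels give these animals no link beyond the number, and the correlations cannot show whether there was another. The causes of the changes below were not tested.

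Counting only the leading gene of each CDR3, and counting families once, were chosen after seeing the data. So was leaving out the 4 genes with few reads in 4 DNP animals from the clone overlap. Against all other IGHV genes, the difference in CDR3 length was 0.17 residues by reads and 0.00886 with the leading gene, but −0.24 by families (adjusted p = 0.0635) and −0.25 to −0.0476 with 1 animal left out. The leading gene moved single-read clones to −7.43 points, and against the other 6 IGHV2 genes to 2.40 points. It also brought IGHJ3 (−3.73 points against all other genes), IGHJ2 (3.47 against the other 6) and IGHJ4 (−5.69 against the other 6) past the threshold. By families and with at least 2 reads per clone these last differences were smaller and did not pass, 0.34 and 1.19 for IGHJ2 and −1.54 and −2.29 for IGHJ4. IGHJ3 passed as well with clones split by IGHJ gene (−4.80), with at least 2 reads per clone (−7.38) and by families (−3.77), IGHJ4 with clones split by IGHJ gene (−4.30), and CDR3 length against the other 6 by families (−0.30). Single-read clones against all other genes turned to 0.70 points with 4662 member reads per animal.

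For HuD minus DNP, families turned CDR3 length to 0.0108 residues and IGHJ3 to −0.63 points. With 1 animal left out, CDR3 length ran from −0.34 to 0.18 residues, net charge from −0.0372 to 0.16, single-read clones from −0.11 to 1.96 points, IGHJ2 from 2.32 to 7.73, IGHJ3 from −0.89 to 1.87 and IGHJ4 from −5.25 to −3.07 points. The log2 usage of IGHV2S12 was 0.0938 with reads naming 1 gene, that of IGHV2-32 was 0.19 by clones, and that of IGHV2-15 was 0.68 with reads naming 1 gene, 0.16 with limma and −0.53 to 0.32 with 1 animal left out. The productive share of IGHV2S12 was 87.4% with reads naming 1 gene. Rare genes were limited by depth, since a count of 0 in the smallest library allows 0.00495%.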
